A study of Mus musculus with 12 samples.

Results

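Small nucleolar RNA (snoRNA) genes were followed over 12 mouse RNA-seq libraries of cellular reprogramming. The members were the genes whose symbol begins with Snora, Snord or Scarna and a number and which had 10 or more counts over all 12 libraries. There were 104 such genes among 23420 genes in the count files: 65 of the C/D box class (Snord), 32 of the H/ACA box class (Snora) and 7 of Cajal body RNAs (Scarna). A further 15 genes with such symbols stayed below 10 counts, 14 of them with no count, among them Snord116. Just inside the limit were Snord33 with 10 counts, Snord118 with 15 and Snord14a with 18, and just outside was Scarna3a with 1. Of the 104 genes, 92 passed the filter on low counts and were tested, and the other 12 are described by their levels.

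The 4 groups had 3 libraries each: MEF, mouse embryonic fibroblasts used unsorted; Stage1, cells at day 6 of reprogramming; Stage2, given in the series text as day 6 + 4; and iPSC, established induced pluripotent stem cells. All groups shared a mixed C57BL/6 and 129 strain background. The series text says that sorting for an Oct4-GFP reporter was applied to every group but MEF. The libraries of Stage1, Stage2 and iPSC therefore come from cells sorted as reporter-positive, and the purity of the sort was not tested. The reprogramming factors, the number of clones and whether libraries came from separate cultures were not given, so the spread between libraries may be partly technical. Groups follow the library titles. A second label field names another stage in each of the 12 libraries. The summed level of 7 fibroblast genes was 27775 to 33935 CPM (counts scaled to the library total and by TMM) in the libraries titled MEF, against 10.8 to 186.7 in the others, and the sum of 7 pluripotency genes was 4.52 to 5.61 in MEF, against 1699 to 3616. The sum of 5 macrophage genes was 102.2 to 109.8 CPM in MEF, against 8.15 to 30.2 in the others. Lyz2 made up most of it in MEF, with 62.5 to 91.5 CPM, and Ptprc, Csf1r and Emr1 were also highest there by mean. Cd68 had 5.07 to 9.88 CPM in MEF and 5.38 to 11.3 CPM in Stage1, and was highest in Stage2, at 22.9 to 27.5 CPM. The part of these genes in the results was not tested.

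snoRNAs are short nuclear RNAs that guide enzymes to single bases of ribosomal RNA (rRNA). C/D box snoRNAs carry fibrillarin, which methylates riboses, and H/ACA box snoRNAs carry dyskerin, which makes pseudouridine, while Cajal body RNAs guide the same changes on the spliceosomal RNAs. Most vertebrate snoRNAs lie in introns of host genes, often genes for ribosomal proteins or for noncoding RNAs, and are trimmed out of the spliced intron. Roles given below for single snoRNAs are those of their human counterparts.

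The sequences below are the transcripts of the GENCODE M21 annotation on GRCm38 (mm10), printed 5′ to 3′ as DNA letters, with capitals for the class motifs found within 20 bases of an end: TGATGA near the 5′ end (box C), CTGA near the 3′ end (box D) and ACA near the 3′ end (box ACA). Only the RNA strand was searched, and the motifs do not overlap one another. The first set holds snoRNAs that were almost without reads in MEF and high in the later groups. Snord87 lies at chr1:9942463-9942549 (- strand) in an intron of Snhg6, Snord70 at chr1:59691934-59692020 (+ strand) in an intron of Nop58, Snord82 at chr1:86356261-86356330 (- strand) in an intron of Ncl and Snora81 at chr16:23110756-23110933 (+ strand) in Eif4a2, overlapping an annotated exon.
Snord87: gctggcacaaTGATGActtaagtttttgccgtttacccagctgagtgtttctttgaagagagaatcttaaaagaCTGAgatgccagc
Snord70: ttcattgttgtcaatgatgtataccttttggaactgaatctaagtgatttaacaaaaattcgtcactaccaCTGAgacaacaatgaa
Snord82: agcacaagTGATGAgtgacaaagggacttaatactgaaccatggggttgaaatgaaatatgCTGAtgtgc
Snora81: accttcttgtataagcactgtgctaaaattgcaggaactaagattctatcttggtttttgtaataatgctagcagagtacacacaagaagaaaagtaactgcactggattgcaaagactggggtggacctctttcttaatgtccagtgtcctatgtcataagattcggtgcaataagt

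The second set holds snoRNAs that were lower in Stage1 than in MEF. Snord17 lies at chr2:144265979-144266216 (- strand) in an intron of Snx5, Snord15b at chr7:99479563-99479707 (- strand) in Rps3, Snora70 at chrX:74272484-74272620 (+ strand) in Rpl10 and Snord52 at chr17:34950952-34951017 (- strand) in 1110038B12Rik, the last 3 overlapping an annotated exon of the host.
Snord17: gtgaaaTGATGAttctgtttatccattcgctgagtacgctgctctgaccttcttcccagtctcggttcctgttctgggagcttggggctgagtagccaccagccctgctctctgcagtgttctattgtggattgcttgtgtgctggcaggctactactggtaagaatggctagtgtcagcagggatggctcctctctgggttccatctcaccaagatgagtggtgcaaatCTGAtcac
Snord15b: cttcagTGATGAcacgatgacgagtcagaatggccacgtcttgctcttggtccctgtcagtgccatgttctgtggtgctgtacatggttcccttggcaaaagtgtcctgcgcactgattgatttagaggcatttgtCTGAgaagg
Snora70: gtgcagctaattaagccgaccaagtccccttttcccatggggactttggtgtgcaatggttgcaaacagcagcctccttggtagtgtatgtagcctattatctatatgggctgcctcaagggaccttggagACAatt
Snord52: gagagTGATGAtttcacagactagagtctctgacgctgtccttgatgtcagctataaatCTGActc

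The third set comes from a single host, the noncoding gene Snhg12, and its members differed in direction. Snora16a lies at chr4:132309465-132309600 (+ strand), Snora44 at chr4:132309941-132310069 (+ strand), Snora61 at chr4:132310240-132310369 (+ strand) and Snord99 at chr4:132310691-132310764 (+ strand).
Snora16a: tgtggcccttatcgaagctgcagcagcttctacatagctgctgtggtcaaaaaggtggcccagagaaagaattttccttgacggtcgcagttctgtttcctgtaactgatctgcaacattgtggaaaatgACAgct
Snora44: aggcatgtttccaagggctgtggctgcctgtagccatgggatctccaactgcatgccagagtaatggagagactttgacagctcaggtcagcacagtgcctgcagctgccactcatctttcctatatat
Snora61: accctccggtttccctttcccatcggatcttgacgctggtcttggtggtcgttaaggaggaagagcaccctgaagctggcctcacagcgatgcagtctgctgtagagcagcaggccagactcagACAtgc
Snord99: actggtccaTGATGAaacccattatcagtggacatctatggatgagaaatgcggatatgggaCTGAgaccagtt

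The fourth set comes from the ribosomal protein gene Rpl13a. There 3 of 4 neighbouring snoRNAs were well covered in Stage1, Stage2 and iPSC but not in MEF, and the remaining one was almost without reads in every group. Snord32a lies at chr7:45127382-45127464 (- strand), Snord33 at chr7:45126864-45126947 (- strand), Snord34 at chr7:45126601-45126670 (- strand) and Snord35a at chr7:45126346-45126435 (- strand).
Snord32a: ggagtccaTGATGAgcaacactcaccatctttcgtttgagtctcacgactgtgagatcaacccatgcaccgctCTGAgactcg
Snord33: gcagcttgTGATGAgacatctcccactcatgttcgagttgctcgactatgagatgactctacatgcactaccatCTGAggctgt
Snord34: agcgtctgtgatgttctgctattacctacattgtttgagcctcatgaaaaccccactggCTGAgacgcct
Snord35a: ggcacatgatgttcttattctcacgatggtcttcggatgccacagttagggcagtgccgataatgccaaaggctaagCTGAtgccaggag

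The motifs followed the symbol classes. CTGA stood in the last 20 bases of 63 of 65 C/D box members (96.9%) and of 4 of 32 H/ACA box members, against 8.96% of 140146 other GENCODE transcripts. TGATGA stood in the first 20 bases of 40 of 65 C/D box members (61.5%) and of no H/ACA box member, against 0.471% of the other transcripts. ACA stood in the last 20 bases of 30 of 32 H/ACA box members (93.8%), all but Snora44 and Snora81, and of 16 C/D box members, against 28.5% of the other transcripts. C/D box members had a median length of 79 nt (64 to 238 nt) and H/ACA box members one of 132.5 nt (127 to 196 nt).

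The libraries held 8916223 to 19011944 gene counts. Reads outside genes were 8.86 to 9.42% of all counted reads in MEF and 35 to 53.4% in the other groups. The precursor rRNA gene Rn45s took 2.42 to 8.47% of gene counts in MEF, highest in MEF replicate 2, and 0.269 to 1.76% in the other groups, highest in Stage2 replicate 1. These values separate MEF from the other groups along with the snoRNA levels, and their part in the results was not tested. In bulk libraries, fewer cells of a type and less RNA per cell cannot be told apart, and reads on an intronic snoRNA cannot be told apart from reads on the host's unspliced RNA. A count of 3 corresponded to 0.158 to 0.336 CPM of gene counts, depending on the library, which is counting error only.

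snoRNA genes together took 0.148, 0.248 and 0.133% of gene counts in the MEF libraries, 0.443, 0.400 and 0.343% in Stage1, 0.256, 0.443 and 0.364% in Stage2 and 0.681, 0.518 and 0.359% in iPSC. All 9 later libraries were above all 3 MEF libraries, with Stage2 replicate 1 (0.256%) close to MEF replicate 2 (0.248%). With Rn45s left out of the totals, Stage2 replicate 1 (0.260%) was below MEF replicate 2 (0.271%), and without the counts of Snord87 it was also below (0.226% against 0.248%). The mean share was 0.396 ± 0.050% in Stage1 and 0.176 ± 0.0624% in MEF (SD, n = 3 each), and 0.519 ± 0.161% in iPSC and 0.354 ± 0.0940% in Stage2 (SD, n = 3 each), the last pair with overlapping libraries. Members with at least 1 count numbered 67, 85 and 80 in the MEF libraries and 101 to 104 in the others. In the MEF group 7 members had no count at all: Snora19, Snord118, Snord33, Snord38a, Snord82, Snord88c and Snord98.

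As a multiple of the MEF share, the change was largest for the short RNAs. Members under 100 nt took 0.00449, 0.00395 and 0.00338% of gene counts in MEF, 0.122, 0.129 and 0.126% in Stage1, 0.0728, 0.161 and 0.134% in Stage2 and 0.171, 0.179 and 0.106% in iPSC. For these RNAs every later library was far above the MEF libraries. Members of 100 to 199 nt took 0.0601 to 0.169% in MEF and 0.202 to 0.297% in Stage1. In Stage2 they took 0.165 to 0.260%, which overlapped MEF, and in iPSC 0.226 to 0.470%. In percent of gene counts, their mean gain over MEF was larger than that of the short RNAs in Stage1 and iPSC. The 5 members of 200 nt and over went the other way, with 0.0152 to 0.0241% in Stage1, against 0.0473 to 0.0831% in MEF. These classes use GENCODE lengths and were drawn after the values were seen.

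**Figure D1:**
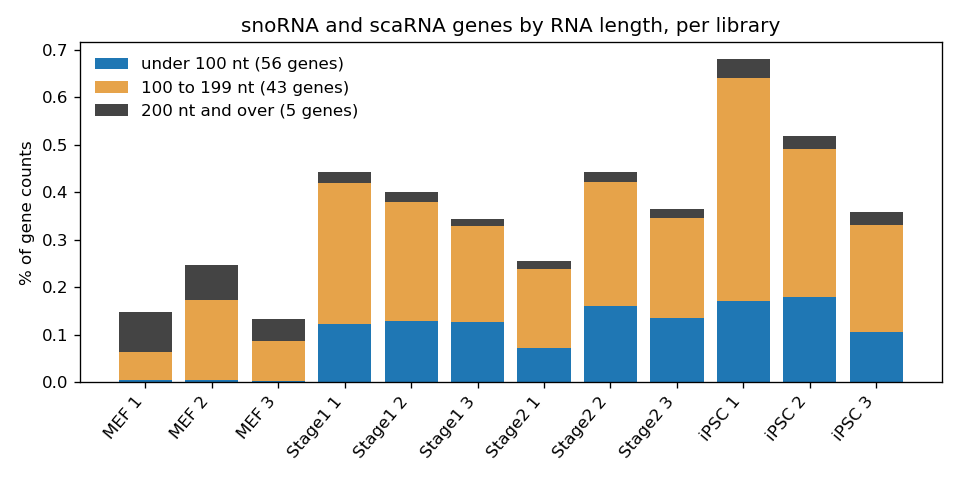
Percent of gene counts (y axis) taken by snoRNA and scaRNA genes in each of the 12 libraries (x axis), stacked by GENCODE RNA length. The segment under 100 nt is 0.00338 to 0.00449% in the MEF libraries and 0.0728 to 0.179% in the other libraries, and the segment of 200 nt and over is largest in MEF.

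Most snoRNA genes were higher in Stage1 than in MEF. Of the 92 tested, 69 rose and 9 fell (edgeR's quasi-likelihood test, Benjamini-Hochberg adjusted p below 0.05), while 44.2% of all 14770 tested genes were called higher, 36.1% lower and 80.4% in either direction. The median log2 fold change was 2.93 over the 92 members and 0.27 over all tested genes, and 3 members without a count in MEF leave the median at 2.93 when set to their lower bounds. Of all 104 members, 59 had a mean of 1 CPM or less in MEF, against 15 in Stage1. Members that low in MEF could pass the filter on low counts through the later groups alone. For them a fall from MEF could hardly be called, and they enter the count of 69 and the median. C/D box genes rose in 47 of 55 cases and fell in 3, with a median of 3.97 (3.93 with the bounds). H/ACA box genes rose in 19 of 30 and fell in 3, with a median of 2.19. Of the 7 Cajal body RNAs, 3 rose and 3 fell. All 3 Stage1 libraries lay apart from all 3 MEF libraries for 82 of the 104 members, and for 79.2% of all tested genes, so this count is near the background. The 2 sets are not alike, since the 104 include 12 members that failed the filter on low counts.

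Snord87, a guide for methylation of large-subunit rRNA, took more counts than any other member. Its level was 0.250, 0.735 and 0.361 CPM in the MEF libraries, 474, 569 and 535 CPM in Stage1, 268, 605 and 636 CPM in Stage2 and 658, 852 and 464 CPM in iPSC. The MEF libraries stood alone near 0, and the later groups overlapped one another. The log2 fold change of Stage1 over MEF was 10.08 ± 0.45 (SE, adjusted p = 6.29e-12). Its host Snhg6, a spliced noncoding RNA, had 80.1 to 93.6 CPM in Stage1 and 42.5 to 72.8 CPM in MEF, a log2 fold change of 0.47 (adjusted p = 0.0394).

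Snora62, the E2 RNA, which guides pseudouridine in large-subunit rRNA, had 347, 314 and 434 CPM in Stage1, against 0.751, 5.88 and 3.19 CPM in MEF. The groups were far apart, with a log2 fold change of 6.68 ± 0.46 (adjusted p = 8.86e-09), while the host Rpsa, a ribosomal protein gene, had 1861 to 2199 CPM in Stage1 and 2748 to 3404 CPM in MEF. Snora81, a further guide for large-subunit rRNA, had 474, 461 and 327 CPM in Stage1, against 4.13, 2.00 and 1.87 CPM in MEF, again without overlap (log2 fold change 7.40 ± 0.30, adjusted p = 3.18e-13). Its host Eif4a2, a translation initiation helicase gene, rose as well, with a log2 fold change of 2.88. The second snoRNA of Eif4a2, Snord2, had a log2 fold change of 5.49. Snora7a in Rpl32 had 116, 142 and 131 CPM in Stage1, against 0.626, 3.81 and 3.25 CPM in MEF (log2 fold change 5.53). Snora23 in Ipo7 had 260, 227 and 144 CPM in Stage1, against 12.4, 36.8 and 16.3 CPM in MEF (log2 fold change 3.25). Both guide large-subunit rRNA, and neither had overlapping libraries.

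Several short C/D box RNAs were close to absent from the MEF counts. Snord82, a guide for small-subunit rRNA, had 30.0, 25.5 and 23.1 CPM in Stage1 and no count in MEF, which makes it at least 349-fold higher when MEF is set to 3 counts over the group. Snord38a, a guide for large-subunit rRNA, had 3.87, 4.92 and 3.78 CPM in Stage1 and no count in MEF, at least 54.8-fold higher. Snord98 was at least 14-fold higher on the same footing. Snord70, a guide for small-subunit rRNA, had 35.1, 35.7 and 36.7 CPM in Stage1, against 1 count in all of MEF, which gives a 1420-fold difference (95% counting limits 254 and 56000). Snord49a, a guide for large-subunit rRNA, had 43.2, 56.4 and 62.2 CPM in Stage1, against 0, 0.134 and 0.181 CPM in MEF, with a log2 fold change of 8.64 ± 0.52 (adjusted p = 7.41e-11). Snord57 and Snord42a, both guides for small-subunit rRNA, had log2 fold changes of 7.65 and 6.99.

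Scarna2, a guide for the spliceosomal RNA U2, fell the most. Its level was 1.45, 1.61 and 1.26 CPM in Stage1, against 30.2, 43.9 and 25.8 CPM in MEF, without overlap (log2 fold change -4.52 ± 0.29, adjusted p = 1.32e-10). Snord17, a long C/D box RNA that guides large-subunit rRNA, had 69.7, 59.4 and 41.4 CPM in Stage1, against 305, 441 and 303 CPM in MEF (log2 fold change -2.62 ± 0.24, adjusted p = 2.1e-08). The libraries of the 2 groups did not overlap, and its host Snx5 moved the other way, with 542 to 647 CPM in Stage1 and 187 to 221 CPM in MEF. Snord15b, a guide for large-subunit rRNA, had 160, 131 and 75.9 CPM in Stage1, against 319, 465 and 320 CPM in MEF, also without overlap (log2 fold change -1.59 ± 0.37, adjusted p = 0.00143). Its copy Snord15a in the same host Rps3 had 57.9, 52.1 and 24.5 CPM in Stage1 and 77.5, 77.7 and 50.8 CPM in MEF, where the libraries overlapped (log2 fold change -0.61, adjusted p = 0.161). Reads that match both copies may have been split or dropped in counting, so the pair is uncertain.

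The other members that fell were less even across libraries. Scarna10, a guide for the spliceosomal RNA U5, had 44.5, 40.0 and 35.8 CPM in Stage1, against 418, 193 and 95.3 CPM in MEF (log2 fold change -2.55, adjusted p = 6.86e-05). Scarna6, a further guide for U5, had a log2 fold change of -1.76 (adjusted p = 4.72e-05). Snora70, a guide for small-subunit rRNA, had 6.70, 5.90 and 5.30 CPM in Stage1, against 8.13, 52.0 and 29.3 CPM in MEF (log2 fold change -2.33, adjusted p = 0.000665). In MEF replicate 1 it was near the Stage1 level. Snord52, the only member under 100 nt by GENCODE length that fell, had 0.760, 0.626 and 0.841 CPM in Stage1, against 4.25, 2.27 and 1.69 CPM in MEF (log2 fold change -1.83, adjusted p = 0.0143). Its adjusted p was 0.0684 without MEF replicate 1 and 0.0514 without Stage1 replicate 2. Snora78, a guide for large-subunit rRNA, had 1.80, 2.50 and 1.43 CPM in Stage1, against 1.00, 9.88 and 5.06 CPM in MEF, with overlap. Its log2 fold change of -1.51 (adjusted p = 0.0234) became -0.74 without MEF replicate 2 (adjusted p = 0.251), and its adjusted p was 0.0623 without Stage1 replicate 1 and 0.0798 without Stage1 replicate 3.

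Snord22, the U22 RNA needed for processing of small-subunit rRNA, was not called in any of the 4 comparisons with all libraries. It had 96.1, 392 and 123 CPM in MEF, 452, 352 and 260 CPM in Stage1, 167, 252 and 140 CPM in Stage2 and 810, 397 and 247 CPM in iPSC. MEF replicate 2 and iPSC replicate 1 stood apart from their groups. The log2 fold change of Stage1 over MEF was 0.80 (adjusted p = 0.241), and without MEF replicate 2 it was 1.68 (adjusted p = 0.0137). For iPSC over MEF the call was made without MEF replicate 2 (log2 fold change 2.12, adjusted p = 0.00451), without iPSC replicate 3 (adjusted p = 0.0317) and with library totals in place of TMM (adjusted p = 0.0326). For Stage2 over Stage1 it was made in a fit of only those groups (-0.88, adjusted p = 0.0439). Its host Snhg1 rose, with 257 to 259 CPM in Stage1 and 32.8 to 52.2 CPM in MEF.

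**Figure D2:**
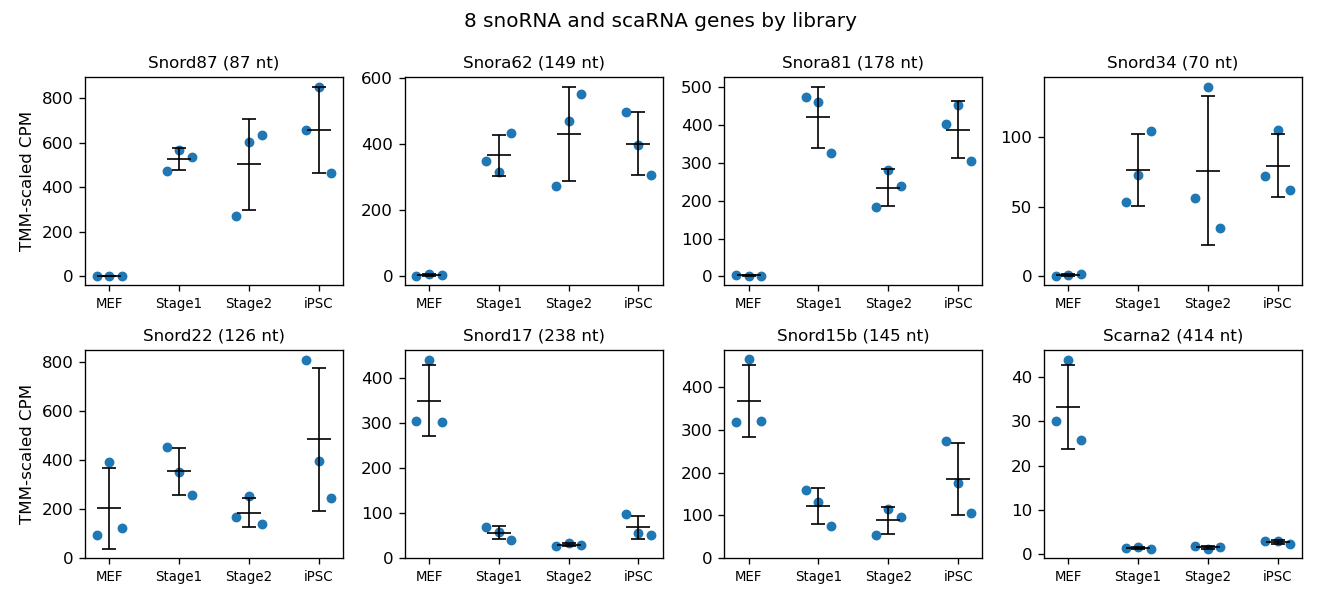
TMM-scaled CPM (y axes, linear and separate for each gene) of 8 members in the 4 groups (x axis). Points are libraries, and the bars give the mean ± SD of 3 libraries. Snord87, Snora62, Snora81 and Snord34 lie near 0 in MEF, Snord17, Snord15b and Scarna2 are highest in MEF, and Snord22 overlaps between groups.

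RNA length went along with the size and sign of the change between Stage1 and MEF. Over all tested genes, 44.2% were called higher and 36.1% lower. The limit from the filter on low counts holds here too, as short members had few counts in MEF. By GENCODE length, under 100 nt, 45 of 49 tested members rose and 1 fell, with a median log2 fold change of 4.59 (4.58 with the bounds). From 100 to 199 nt, 24 of 38 rose and 4 fell, with a median of 2.24. Of the 5 members of 200 nt and over, none rose and 4 fell, namely Scarna2, Scarna10, Scarna6 and Snord17, and Scarna13 was not called (log2 fold change -0.02). Scarna13 had 92.7, 91.9 and 62.5 CPM in Stage1 and 93.8, 99.4 and 58.4 CPM in MEF. Within the C/D box class alone, 43 of 47 members under 100 nt rose and 4 of 8 longer ones did, with medians of 4.59 and 2.19. Across the 92 members, Pearson's r between the log2 fold change and log2 length was -0.53 and Spearman's rho was -0.43. With RefSeq lengths, which differ by over 50 nt for 6 members (Scarna2 has 61 nt there and 414 nt in GENCODE, Scarna10 71 and 325 nt), r was -0.40 and rho was -0.38. The class counts change with them: under 100 nt, 52 of 58 tested members rose and 3 fell, namely Scarna2, Scarna10 and Snord52 (median 4.10), and of 3 members of 200 nt and over none rose and 2 fell. All points share the same 6 libraries, and the sources used here give no lower limit for the fragments kept in library preparation, and size selection was not tested.

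**Figure D3:**
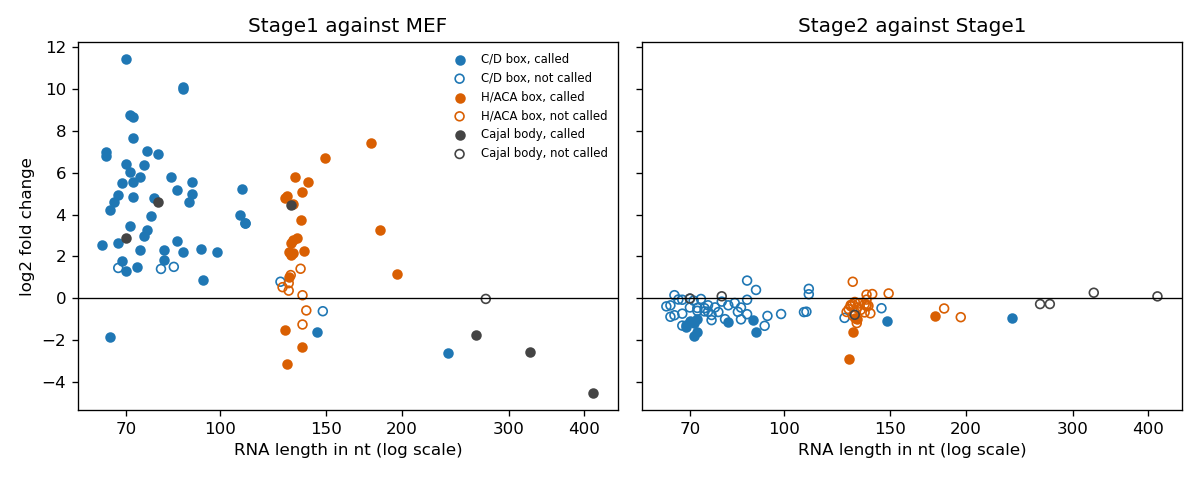
Log2 fold change (y axis) against GENCODE RNA length in nt (x axis, log scale) for the 92 tested members, in Stage1 against MEF (left) and Stage2 against Stage1 (right). Filled points were called at adjusted p below 0.05; on the left the short RNAs lie highest and the 5 RNAs of 200 nt and over lie at or below 0.

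**Figure D4:**
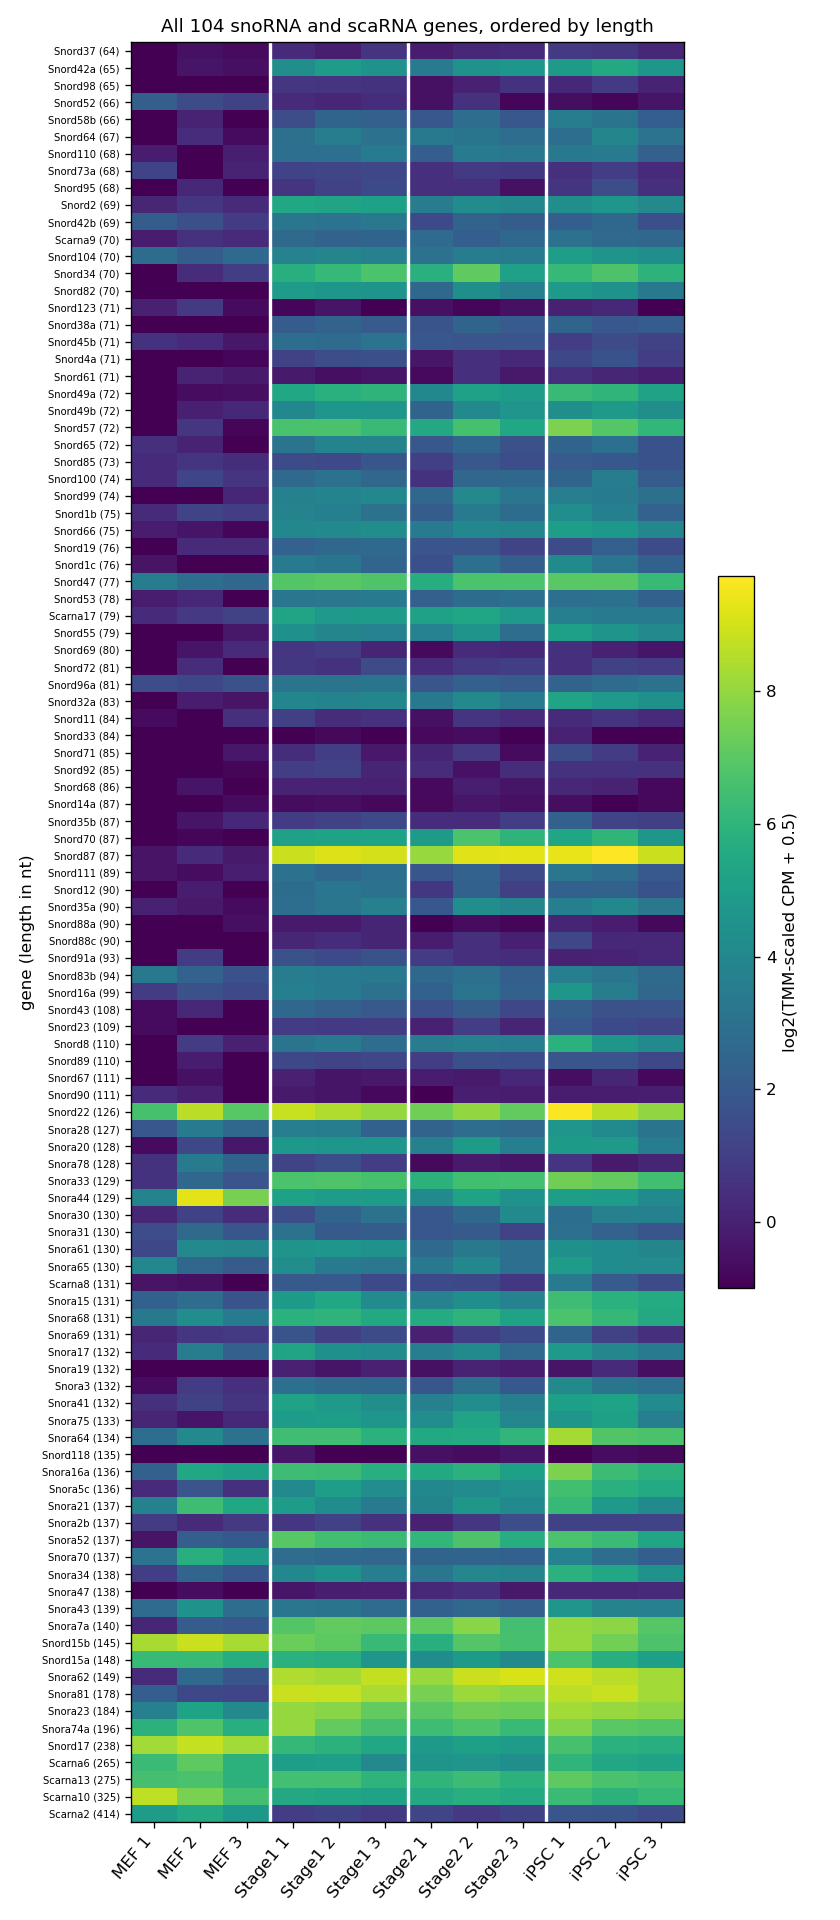
Level of all 104 members (rows, shortest at the top, length in brackets) in the 12 libraries (columns), as log2(TMM-scaled CPM + 0.5). The upper rows are dark in the 3 MEF libraries and brighter in the other 9, and the lowest rows are bright in MEF.

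Members were also set beside their host genes. The annotated host was a ribosomal protein gene for 32 members, another coding gene for 46 and a noncoding gene for 20, and 6 members had none. Coding and noncoding here follow the GENCODE gene type. That type is processed transcript for the chaperonin subunit gene Cct6a, so its member Snora15 stands among the 20. By annotation, 51 members lay in an intron of the host and 47 overlapped a host exon, where member and host may share reads. The host had a row of its own in the files for 94 members (70 host genes). In Stage1 against MEF, members in ribosomal protein genes rose in 22 of 29 tested cases and fell in 2 (median log2 fold change 2.79). Those in other coding genes rose in 31 of 39 and fell in 3 (3.45), and those in noncoding genes rose in 13 of 19 and fell in 3 (2.96). Of the 70 host genes themselves, 48 rose, 9 fell and 13 were not called, where 44.2% of all tested genes were called higher and 36.1% lower. Over 83 tested pairs in 61 hosts, the median log2 fold change was 3.25 for the member and 0.98 for the host, and both rose in 48 pairs. In 6 pairs the member rose and the host fell, and in 6 the member fell and the host rose. Pearson's r between the 2 log2 fold changes was 0.17 and Spearman's rho was 0.14, as a description over pairs that share libraries and, in part, hosts.

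**Figure D5:**
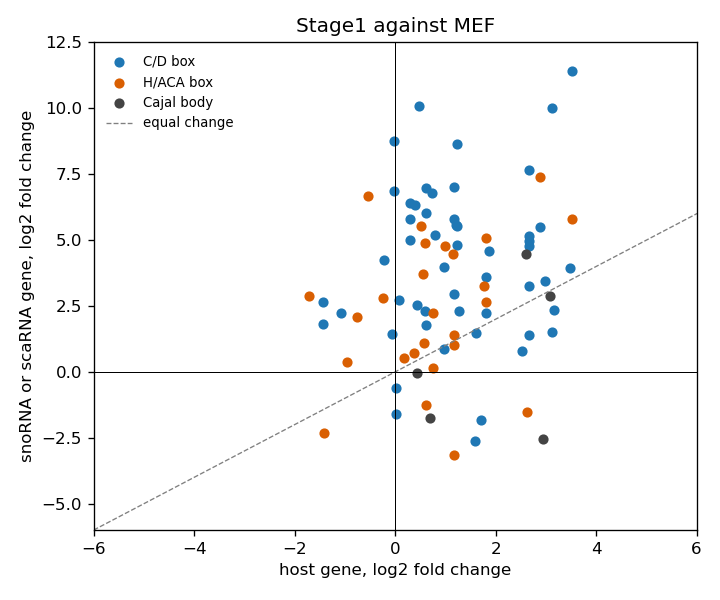
Log2 fold change of Stage1 over MEF for a snoRNA or scaRNA gene (y axis) and for its host gene (x axis), 83 pairs. The dashed line marks equal change; most points lie above it, with a median of 3.25 for members and 0.98 for hosts.

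Neighbours within a host also differed. Among 17 hosts with 2 or more tested members, all tested members rose in Stage1 against MEF in 12, and members called in opposite directions occurred in 1, Snhg12. In this comparison 75.0% of all tested members were called higher, and of all tested genes 44.2% were called higher and 36.1% lower. The median range of log2 fold changes within these hosts was 2.57. In Snhg12, whose own log2 fold change was 1.18, the short Snord99 had 12.8, 13.9 and 15.6 CPM in Stage1, against 0, 0 and 0.602 CPM in MEF (log2 fold change 5.78 ± 0.61, adjusted p = 1.13e-07). Snora44, a guide for small-subunit rRNA, had 34.5, 29.6 and 29.3 CPM in Stage1, against 13.9, 625 and 186 CPM in MEF, so that MEF replicate 1 lay below all Stage1 libraries and the other two far above them. Its log2 fold change of -3.15 ± 1.04 (adjusted p = 0.0204) became -1.71 without MEF replicate 2 (adjusted p = 0.0935), and the adjusted p was 0.0545, 0.0619 and 0.0616 without Stage1 replicate 1, 2 and 3. Snora61 had 22.9, 24.7 and 21.0 CPM in Stage1, against 2.00, 15.9 and 15.0 CPM in MEF (log2 fold change 1.02, adjusted p = 0.0387), and leaving out MEF replicate 3 or any Stage1 library gave adjusted p values of 0.0529 to 0.0821. DESeq2 gave Snora61 an adjusted p of 0.0737 on all libraries, and edgeR gave 0.102 without the filter on low counts, 0.104 in a fit of only these groups and 0.276 with totals that include reads outside genes. Snora16a had 83.2, 80.5 and 54.3 CPM in Stage1, against 4.5, 42.0 and 33.4 CPM in MEF, without overlap but not called (log2 fold change 1.42, adjusted p = 0.0795). It was called without iPSC replicate 1, which shares in the estimate of spread (0.038), with library totals (0.0487) and in a fit of only these groups (0.0424).

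In Rpl13a, whose own log2 fold change was 0.30, 3 snoRNAs rose. Snord34, a guide for large-subunit rRNA, had 53.0, 72.6 and 104 CPM in Stage1, against 0, 0.801 and 1.45 CPM in MEF (log2 fold change 6.42 ± 0.73, adjusted p = 8.58e-06). Snord32a had a log2 fold change of 5.78 and Snord35a one of 4.99. The fourth, Snord33, had 10 counts over all 12 libraries although its sequence holds both box motifs. In Nop58, Snord70 is set out above and its neighbour Snord11 had 1.52, 0.805 and 0.925 CPM in Stage1, against 0.125, 0 and 0.903 CPM in MEF, with overlap (log2 fold change 1.50, adjusted p = 0.0928); without MEF replicate 3 it was 4.34 (adjusted p = 0.00158). In Ncl, Snora75 rose beside Snord82, with 29.7, 32.0 and 24.5 CPM in Stage1 and 0.626, 0.267 and 0.663 CPM in MEF. Snord47, the only listed Gas5 snoRNA among the members and a guide for large-subunit rRNA, had 116, 125 and 110 CPM in Stage1, against 11.4, 6.94 and 5.42 CPM in MEF (log2 fold change 3.93), and Gas5 itself had a log2 fold change of 3.48. Snord64, an imprinted snoRNA of the Snrpn domain with no known rRNA target, had 7.32, 10.7 and 7.57 CPM in Stage1, against 0, 0.801 and 0.120 CPM in MEF (log2 fold change 4.58), while 3 Snord116 rows of the same domain had no count.

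The genes for snoRNA-binding proteins were set beside the RNAs. In Stage1 against MEF, 44.2% of all tested genes were called higher, 36.1% lower and 80.4% in either direction. Of the 4 C/D box core proteins, Fbl (fibrillarin), Nop56 and Nop58 rose in Stage1 against MEF, with log2 fold changes of 2.71, 2.66 and 3.11, and Nhp2l1 was not called (-0.01). All 4 H/ACA box core genes rose: Dkc1 (dyskerin) by a log2 fold change of 4.22, Gar1 by 2.74, Nhp2 by 1.48 and Nop10 by 0.78. Dkc1 had 650 ± 31.8 CPM in Stage1 and 34.9 ± 3.69 CPM in MEF (SD, n = 3 each). Of 14 assembly and maturation factors, 12 rose, Pih1d1 fell (-1.57) and Wrap53 was not called (-0.18). Among them Nolc1, which escorts snoRNA particles through the nucleus, had a log2 fold change of 3.41, and Coil, the Cajal body scaffold, one of 2.76.

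Other structured RNAs, which were short but for the precursor rRNA Rn45s, split. Of 8 tested, 3 rose in Stage1 against MEF, the minor spliceosomal RNAs Rnu12 (7.49) and Rnu11 (4.20) and the telomerase RNA Terc (2.18), while 5 fell, the ribonuclease P RNA Rpph1 (-5.19), the precursor rRNA Rn45s (-3.98), Rprl3 (-3.68), the ribonuclease MRP RNA Rmrp (-3.11) and the vault RNA Vaultrc5 (-1.33). Rmrp had 2436 ± 846 CPM in Stage1 and 20983 ± 13477 CPM in MEF, and Rnu12 had 1639 ± 174 CPM in Stage1 and 8.94 ± 2.99 CPM in MEF (SD, n = 3 each). In this comparison 80.4% of all tested genes were called in either direction.

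Between Stage2 and Stage1 no member rose and 17 of 92 fell, where 20.6% of all tested genes were called higher, 19.8% lower and 40.4% in either direction. DESeq2 also called no member higher, and at an unadjusted p below 0.05 edgeR had 1 higher member and 20 lower ones. Other edgeR settings did call members higher. Snord70 (log2 fold change 0.85) was called with library totals (adjusted p = 0.0372), without Stage2 replicate 1 (0.0053) and without iPSC replicate 2 (0.0496). A fit of only these groups called 2 members higher. The median log2 fold change was -0.53, against 0.02 over all tested genes. The members that fell were 18.5% of those tested, so their count is near the 19.8% of all tested genes. By class, 12 of 55 C/D box (21.8%), 5 of 30 H/ACA box (16.7%) and none of 7 Cajal body members fell. Of the 70 host genes, 39 fell and none rose. Stage2 libraries differed among themselves: replicate 1 was the lowest of the 3 in snoRNA share, and 10 members fell without Stage2 replicate 1 and 10 without Stage2 replicate 3.

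Snora78 fell the most, with 0.0976, 0.352 and 0.258 CPM in Stage2, against 1.80, 2.50 and 1.43 CPM in Stage1 (log2 fold change -2.90 ± 0.76, adjusted p = 0.00568). The libraries did not overlap, and the noncoding host Snhg9 had a log2 fold change of -2.37. Snora61 had 5.95, 9.51 and 7.11 CPM in Stage2, against 22.9, 24.7 and 21.0 CPM in Stage1 (log2 fold change -1.60, adjusted p = 0.00902). Snord4a, a guide for small-subunit rRNA, had 0.293, 0.916 and 0.646 CPM in Stage2, against 1.66, 2.50 and 2.61 CPM in Stage1 (log2 fold change -1.81, adjusted p = 0.0104, and 0.0526 without Stage2 replicate 1). Snord12 had 1.17, 4.58 and 1.55 CPM in Stage2, against 6.49, 8.67 and 7.48 CPM in Stage1 (log2 fold change -1.61, adjusted p = 0.0183), and without Stage1 replicate 2, Stage2 replicate 1 or Stage2 replicate 3 its adjusted p was 0.0638, 0.0769 or 0.0828. Snord65 had 3.32, 5.56 and 2.65 CPM in Stage2, against 8.22, 13.3 and 13.5 CPM in Stage1 (log2 fold change -1.59, adjusted p = 0.0121, and 0.0611 without Stage2 replicate 3). None of these 4 had overlapping libraries, but that was a condition for naming them and Snora78 here.

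The abundant Snora81 also fell, with 183, 282 and 240 CPM in Stage2, against 474, 461 and 327 CPM in Stage1 (log2 fold change -0.84 ± 0.21, adjusted p = 0.00437), and Snord2 of the same host Eif4a2 had a log2 fold change of -1.37 (adjusted p = 8.17e-05). Snord17 fell again, with 27.6, 33.5 and 29.1 CPM in Stage2, against 69.7, 59.4 and 41.4 CPM in Stage1 (log2 fold change -0.92, adjusted p = 0.00509). Snora62 and Snord87 were not called, with log2 fold changes of 0.24 and -0.06. The protein genes fell in part: 4 of 4 C/D box core genes, 2 of 4 H/ACA box core genes and 5 of 14 assembly factors, with none called higher. Of all tested genes, 19.8% were called lower and 20.6% higher. Nolc1 had a log2 fold change of -1.03 and Nop58 one of -1.10. Over the 92 members, r between log2 fold change and log2 length was 0.15 with GENCODE lengths and 0.0011 with RefSeq lengths.

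Between iPSC and Stage2, 19 of 92 members rose and 1 fell, where 9.21% of all tested genes were called higher, 8.87% lower and 18.1% in either direction. The median log2 fold change was 0.72, against 0.04 over all tested genes. The count of higher members was 7 without Stage2 replicate 1, 9 without Stage2 replicate 3, 7 without iPSC replicate 1 and 12 without iPSC replicate 2. iPSC replicate 1 was the highest of its group for 66 of the 104 members. By class, 8 of 55 C/D box, 8 of 30 H/ACA box and 3 of 7 Cajal body members rose. By length, 5 of 49 under 100 nt rose, 11 of 38 from 100 to 199 nt did, and 3 of 5 of 200 nt and over did. Pearson's r between log2 fold change and log2 length was 0.29 with GENCODE lengths and 0.41 with RefSeq lengths. Its sign was opposite to that in Stage1 against MEF.

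Snora15 rose the most, with 83.1, 58.2 and 47.6 CPM in iPSC, against 13.0, 20.1 and 13.0 CPM in Stage2 (log2 fold change 2.03 ± 0.32, adjusted p = 0.000656). The libraries did not overlap, which was a condition for naming it here. The host Cct6a, a chaperonin subunit gene, had a log2 fold change of 0.59. Snora5c had 89.9, 56.5 and 47.2 CPM in iPSC, against 15.8, 17.5 and 21.1 CPM in Stage2 (log2 fold change 1.82, adjusted p = 0.00163). Snora43 had 24.7, 13.6 and 12.3 CPM in iPSC, against 4.49, 5.42 and 4.33 CPM in Stage2 (log2 fold change 1.83, adjusted p = 0.00665). These 3 calls held with each library left out in turn. Snora64, the U64 RNA, had 314, 111 and 98.8 CPM in iPSC, against 45.0, 46.5 and 65.8 CPM in Stage2 (log2 fold change 1.74, adjusted p = 0.022), and its adjusted p was 0.0768 without Stage2 replicate 1 and 0.072 without Stage2 replicate 2, 0.0682 with no filter and 0.0965 in a fit of only these groups. Snord4a had 2.01, 2.77 and 1.44 CPM in iPSC, against 0.293, 0.916 and 0.646 CPM in Stage2 (log2 fold change 1.70, adjusted p = 0.0321), and without Stage2 replicate 1 or 3, or iPSC replicate 1 or 2, its adjusted p was 0.0822 to 0.139.

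Scarna17, a guide for spliceosomal RNAs, was the only member called lower. It had 0.751, 1.20 and 1.69 CPM in MEF, 37.7, 26.4 and 30.4 CPM in Stage1, 35.3, 38.7 and 27.5 CPM in Stage2 and 11.7, 10.7 and 9.85 CPM in iPSC. The iPSC libraries lay below all Stage1 and Stage2 libraries and above all MEF libraries, with a log2 fold change of iPSC over Stage2 of -1.65 ± 0.22 (adjusted p = 0.000117). Among the other Cajal body RNAs, Scarna8 (log2 fold change 1.62, adjusted p = 0.0464), Scarna6 (1.09, adjusted p = 0.0199) and Scarna13 (0.65, adjusted p = 0.0418) rose, and each call was lost without iPSC replicate 1 (adjusted p of 0.396, 0.097 and 0.19). The Scarna6 call was also lost without Stage2 replicate 1 or 3 (0.0535 and 0.0742). That of Scarna8 was also lost without any one of the Stage1 or Stage2 libraries or iPSC replicate 2 (0.0522 to 0.164), and that of Scarna13 without MEF replicate 1, Stage1 replicate 2, Stage2 replicate 1 or 3 or iPSC replicate 2 (0.0529 to 0.143). Other settings also ended these calls: other scalings gave 0.0522 and 0.0594 for Scarna8 and 0.055 to 0.0816 for Scarna13, a fit of only these groups gave 0.0562 for Scarna8, and no filter on low counts gave 0.0634 for Scarna6. Scarna9, Scarna2 and Scarna10 were not called, but Scarna2 was without MEF replicate 3 (adjusted p = 0.0424) and with totals that include reads outside genes (0.0254), and Scarna10 was in a fit of only these groups (0.00502). Snord17 rose, with 97.7, 56.7 and 52.2 CPM in iPSC, against 27.6, 33.5 and 29.1 CPM in Stage2 (log2 fold change 1.19, adjusted p = 0.00314). Snora81 had 403, 454 and 305 CPM in iPSC, against 183, 282 and 240 CPM in Stage2 (log2 fold change 0.72, adjusted p = 0.0264), and leaving out Stage2 replicate 1 or 3, or iPSC replicate 1 or 2, gave adjusted p values of 0.0694 to 0.118, and library totals in place of TMM gave 0.0571.

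Most snoRNA genes were also higher in established iPSC than in MEF. Of 92 members, 68 were higher and 9 lower in iPSC than in MEF, where 44.9% of all tested genes were called higher, 35.8% lower and 80.8% in either direction, with a median log2 fold change of 3.47 (3.44 with the bounds), against 0.29 over all tested genes. This comparison shares the MEF libraries with that of Stage1 against MEF, and also the limit from the filter on low counts. Snord87 had 658, 852 and 464 CPM in iPSC, against 0.250, 0.735 and 0.361 CPM in MEF. Scarna2 had 3.02, 2.91 and 2.21 CPM in iPSC, against 30.2, 43.9 and 25.8 CPM in MEF (log2 fold change -3.61 ± 0.27, adjusted p = 1.15e-09). Snord52 had 0.168, 0.0694 and 0.255 CPM in iPSC, against 4.25, 2.27 and 1.69 CPM in MEF (log2 fold change -3.99 ± 0.78, adjusted p = 0.000155). Snord17 had a log2 fold change of -2.35 (adjusted p = 7.87e-08) and Scarna10 one of -1.73 (adjusted p = 0.00117). Snord15b had 273, 176 and 107 CPM in iPSC, against 319, 465 and 320 CPM in MEF (log2 fold change -0.99, adjusted p = 0.0226), and without MEF replicate 2 or 3, or iPSC replicate 2 or 3, its adjusted p was 0.061 to 0.114, with library totals 0.0879 and with no filter 0.0773.

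Members near the limit of detection keep their own account. Snord118, the U8 RNA needed for processing of large-subunit rRNA, had 15 counts and Snord14a, of the U14 family, had 18 counts over the 12 libraries, and neither was tested. Snora74a, the U19 RNA, was uneven between libraries. It had 265, 141 and 94.2 CPM in Stage1, against 59.9, 110 and 52.0 CPM in MEF, with overlap (log2 fold change 1.17, adjusted p = 0.0142), and without MEF replicate 1 or 3 or Stage1 replicate 1 the adjusted p was 0.0605, 0.101 or 0.0602. It was 0.0514 with no filter on low counts, and with totals that include reads outside genes the log2 fold change was 0.70 (adjusted p = 0.136). The 10 members with the most counts held 59.8% of all snoRNA counts. In MEF the first 3 were Snord15b, Snord17 and Snora44, in Stage1 Snord87, Snora81 and Snora62, in Stage2 Snord87, Snora62 and Snora81, and in iPSC Snord87, Snord22 and Snora62. These ranks are by counts and not per length.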

How the data were processed

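The deposited files hold raw HTSeq counts, whole reads per gene symbol that the authors had not normalised. The submitters' processing notes name the genome build mm10 and the tools HTSeq 0.5.4p3, TopHat2 2.0.9, DESeq2 1.12.4, Bowtie2 2.2.6 and SAMtools 0.1.19, with no order. Per the labels, total RNA was extracted with the miRNeasy Mini kit. The sources used here give neither strandedness, rules for reads with several matches nor the annotation version, so a snoRNA, an overlapping host exon and a near-identical copy may share reads. HTSeq's summary lines entered neither the tests nor the library sizes of the main fit. Among the other settings, only the totals that include reads outside genes used them.

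All 12 libraries entered 1 edgeR 4.0.16 fit (R 4.3.3): filterByExpr by group (14770 of 23420 genes), TMM scaling, robust dispersions (common biological coefficient of variation 0.19) and the quasi-likelihood test, with Benjamini-Hochberg adjustment over all 14770 genes in each of the 4 comparisons and calls below 0.05. Levels are TMM-scaled CPM. The standard error is the absolute log2 fold change over the root of F. A group without counts was set to 3 counts over the group, and ratios against 1 to 3 counts carry a 95% exact binomial interval, which covers counting error only.

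Symbols were matched to GENCODE M21 for place, length and sequence. Hosts are same-strand genes spanning the member. The members, gene lists and tests were chosen with earlier results of these data known. Members named are the 10 with the highest mean CPM, the 5 with the largest change per comparison and direction that were called and did not overlap between groups, imprinted snoRNAs, those of Gas5, Snhg1, Rpl13a and Snhg3 (none of the last in the files), processing snoRNAs and Cajal body RNAs. Named after their values were seen were Snora44, Snora16a, Snord99, Snord15a, Snora75, Snord11, Snord42a, Snord57 and Snord2. The fit was tested on simulated data. DESeq2 1.42.0, RLE scaling, library totals, other filters, a 2-fold threshold, fits of only 2 groups and leaving out each library were tried.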

Additional observations from a re-analysis of the deposited data

How the results depend on the processing

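In Stage1 against MEF the count of higher members was 67 to 71 (as reported 69) with 1 library left out and 63 to 71 under the other settings, and that of lower members was 7 to 9 and 7 to 10 (as reported 9). In iPSC against MEF these counts were 66 to 72 and 61 to 75 for higher members, and 6 to 9 and 7 to 9 for lower ones, the 6 without MEF replicate 2. In Stage2 against Stage1, higher members numbered 0 to 1 with 1 library left out, 1 with library totals in place of TMM and 2 in a fit of only the groups compared, and lower members numbered 10 to 18 and, tested against a 2-fold threshold, 1. All genes called there were 1216 at the 2-fold threshold and 4482 to 6959 with 1 library left out. In iPSC against Stage2, higher members numbered 7 to 25 with 1 library left out and 0 at the 2-fold threshold. Lower members numbered 1 to 1 with 1 library left out, 0 at the 2-fold threshold and 2 in a fit of only the groups compared. All genes called there were 82 at the 2-fold threshold, 4954 in the fit of only the groups compared and 1233 to 3781 with 1 library left out. Without its most abundant snoRNA gene the mean share in Stage1 was 0.344%, and with 1 library left out the mean shares were 0.140 to 0.198% in MEF, 0.372 to 0.422% in Stage1, 0.310 to 0.404% in Stage2 and 0.438 to 0.600% in iPSC.

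Library totals in place of TMM moved the median log2 fold change of all genes by 0.18 in Stage1 against MEF, 0.20 in Stage2 against Stage1, -0.10 in iPSC against Stage2 and 0.28 in iPSC against MEF. Totals that include reads outside genes, a setting chosen after the data were seen, moved it by -0.49, 0.02, 0.19 and -0.29. Of all calls in Stage2 against Stage1, 51.1% were higher as reported and 70.6% with library totals; in iPSC against Stage2 these were 50.9% as reported, 34.2% with library totals and 77.9% with the wider totals; in Stage1 against MEF they were 55% as reported and 43.5% with the wider totals. Over 184 pairs of a named member and a comparison, 4045 values under other settings held 0 reversals, 158 lost calls and 53 gained ones. The cause of these differences was not tested.

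Same-numbered libraries did not pair: of 18 pairs, 3 had a correlation of deviations above 0.1 (-0.0675 to 0.197). With the replicate number as a block, 70 members were higher and 9 lower in Stage1 against MEF, 0 and 19 in Stage2 against Stage1, 21 and 1 in iPSC against Stage2, and 70 and 9 in iPSC against MEF. Limits are 3 libraries a group, unknown library preparation and few MEF counts on short RNAs.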
